A study of Mus musculus with 6 samples.

Results

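Basement membranes are thin sheets of extracellular matrix that line epithelia and endothelia and surround muscle and fat cells. Laminin trimers and type IV collagen trimers each assemble into a network, and nidogens and the heparan sulphate proteoglycan perlecan bind to these networks. In the mouse embryo such sheets first form beneath the endoderm and epiblast, and the migration of mesoderm and the assembly of vessels take place on matrix rich in fibronectin. The 10 genes described here encode both chains of the main type IV collagen (Col4a1 and Col4a2), an alpha, a beta and a gamma chain of laminin (Lama1, Lamb1 and Lamc1), the nidogens (Nid1 and Nid2), perlecan (Hspg2), the collagen-binding glycoprotein SPARC (Sparc) and fibronectin (Fn1). They are 10 of the 18193 genes read on the array, and 21 probe sets were assigned to them alone. Where a gene had several probe sets, that of the highest mean level stands for it, and the other probe sets of the 7 genes that have more than 1 are given beside it.

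RNA came from Flk1-positive cells (labelled blast colony-forming cells, the culture counterpart of the haemangioblast) isolated from embryoid bodies at day 4. The embryoid bodies were grown in suspension without LIF from mouse embryonic stem (ES) cells that were either wild type (Ldb1+/+) or knockout (Ldb1-/-) for Ldb1, the gene of a LIM-domain-binding adaptor protein. Each genotype has 3 biological replicates, numbered 1 to 3, and each replicate is 1 Affymetrix array. The labels name neither the deleted stretch of Ldb1 nor the number of ES cell clones, and they do not state what a replicate number marks, so the p-values measure the spread between these arrays. Values are log2 expression levels, so that a difference of 1 is a doubling, and levels of different genes are not compared because each probe set has its own response.

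The targeted gene was read by 1 probe set. Ldb1 stood at 7.78, 7.31 and 8.31 in wild-type arrays 1, 2 and 3 and at 7.25, 6.60 and 8.25 in the knockout arrays of the same numbers, and the genotype difference of −0.43 missed the threshold in limma (adjusted p = 1.00). A probe set outside the deleted stretch would leave the genotype unchecked. Kdr, which encodes Flk1, read 12.44, 12.14 and 11.78 in wild type and 12.19, 11.33 and 11.58 in knockout arrays (adjusted p = 1.00). Of 9 markers of Flk1-positive mesoderm, all 9 had means over 5.74, the median level among probe sets, as did 10 of 17 endoderm markers, which are described with the other lists.

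By genotype no basement membrane gene passed the test, which few genes of the array did. Without the replicate number as a block the members' 95% intervals were wide, reaching down to −2.09 for Col4a2 and up to 2.07 for Nid1. With the block they were narrower, reaching down to −1.04 for Lama1 and up to 0.76 for Nid1. Without the block, 0 of the 10 genes were called between the genotypes by limma at an adjusted p under 0.05 (0.0220% of all genes). In that fit 0 had an unadjusted p under 0.05 (3.85% of all genes). The mean was lower in knockout arrays for 8 genes and higher for 2, and the median difference was −0.17, against −0.01 over all genes. That median was −0.72 without knockout array 1, −0.66 without wild-type array 3, 0.20 without knockout array 3 and 0.32 without wild-type array 1. The knockout and wild-type arrays overlapped for all 10 genes, whereas 7.92% of all genes did not overlap. With the replicate number as a block, 0 were called again (0.341% of all genes), and 2, Sparc and Nid1, had an unadjusted p under 0.05 (8.94% of all genes). Sparc and Lama1 passed the test in 1 other setting, described with each gene below.

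By contrast 9 of the 10 genes were highest in the number 1 array of both genotypes, which held for 24.7% of all genes. All 10 members lie above the median level, and among such genes the share was 33.7%. An F test over the replicate number in the blocked fit, chosen after these values were seen, called the same 9 genes at adjusted p between 0.0163 and 0.0313, and 9.15% of all genes. Fitted to the genes above the median level alone, it called 9 members and 2243 of 11199 genes. It called 6 members without wild-type array 1 (Lama1, Sparc and Fn1 were lost), 7 without knockout array 1 (Sparc and Fn1 were lost) and 10 without knockout array 3. It called 5 with each array centred by chromosome (Lama1, Lamb1, Sparc and Fn1 were lost) and 6 with a gene's probe sets averaged (Lamb1, Sparc and Fn1 were lost). The mean of the number 1 arrays lay more than 1 above that of the number 3 arrays in 9 of 10 genes, against 6.50% of all genes and 9.99% of the genes above the median level. The median of this difference was 1.82 over the 10 genes and 0.03 over all genes. Hspg2 was the gene that did not follow.

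**Figure D1:**
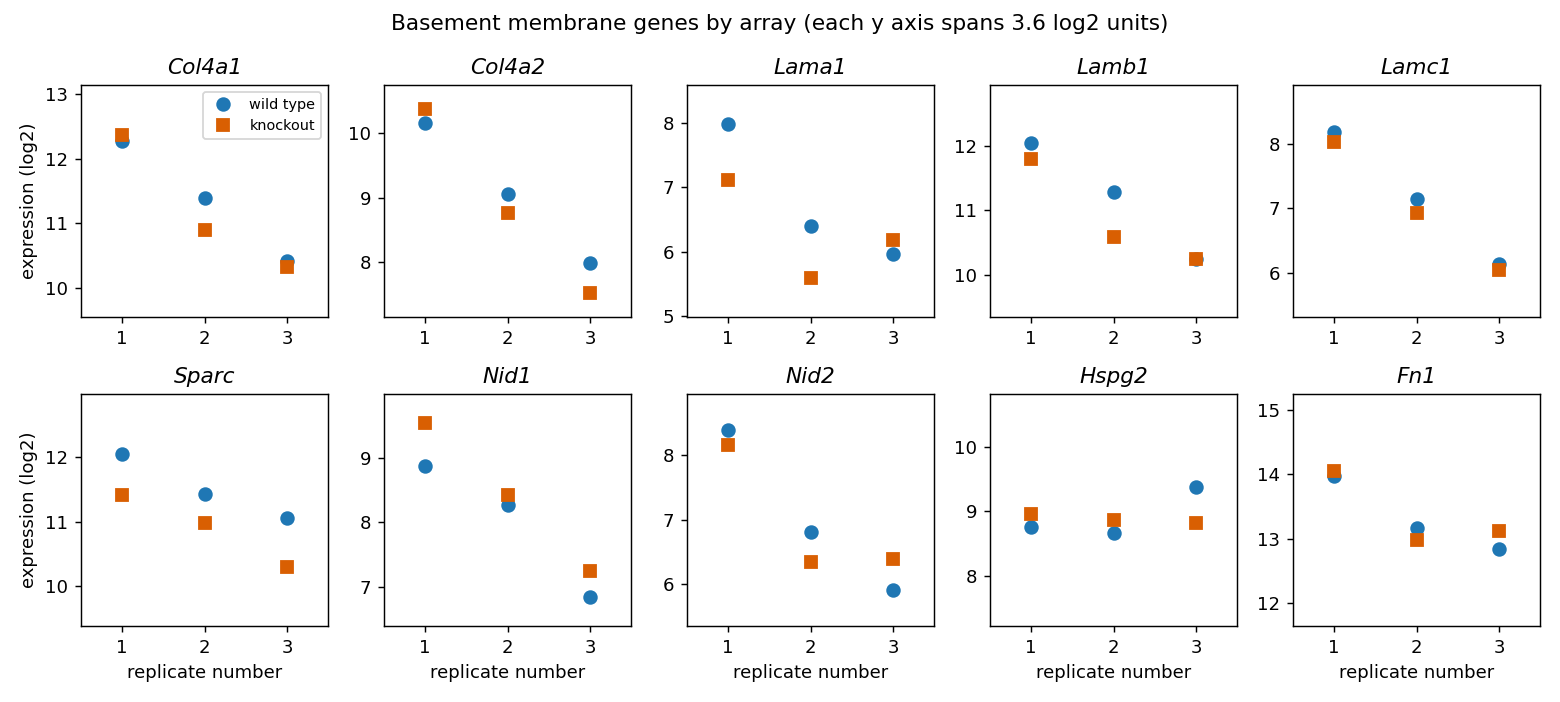
Expression (log2, y axis, each panel spanning the same range of values) of the 10 basement membrane genes in each array against the replicate number (x axis), with wild-type arrays as circles and knockout arrays as squares. In 9 panels both number 1 arrays lie above the other arrays of their genotype, and the circle and square of a number mostly lie close together; Hspg2 is the exception.

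Type IV collagen forms the covalently linked network of every basement membrane, and its main form joins chains of Col4a1 and Col4a2. In RefSeq (GRCm38.p6) Col4a1 spans chr8:11198423-11312889 and Col4a2 chr8:11312805-11449287. Col4a1 read 12.28, 11.40 and 10.42 in wild-type arrays 1, 2 and 3 and 12.38, 10.89 and 10.32 in knockout arrays. Its highest values were thus those of the number 1 arrays, and those of the genotypes overlapped throughout. The group means were 11.37 ± 0.93 and 11.20 ± 1.06 (SD, n = 3), a difference of −0.17 with a 95% interval of −1.68 to 1.34. With the block the interval was −0.54 to 0.20 (adjusted p = 0.901). The number 1 arrays stood 3.88-fold above the number 3 arrays (F test, adjusted p = 0.0166). A second Col4a1 probe set gave the same picture, with a genotype difference of −0.22 and number 1 above number 3 by 1.70 (F test, adjusted p = 0.0257 over all probe sets).

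Col4a2 read 10.16, 9.05 and 7.99 in wild type and 10.38, 8.76 and 7.52 in knockout arrays. The knockout array was the higher of the pair for number 1 and the lower for numbers 2 and 3. Its genotype difference was −0.18 (95% interval −2.09 to 1.73; −0.58 to 0.22 with the block), and number 1 stood 5.70-fold above number 3, the widest such gap of the 10 genes (F test, adjusted p = 0.0163). Both genes lie on chromosome 8, where genes above the median level were higher in knockout arrays by a median of 0.26. With each array centred on the genes of the same chromosome, the differences were −0.46 for Col4a1 and −0.47 for Col4a2, neither of which passed (adjusted p = 1.00, and 0.503 and 0.700 with the block).

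Col4a1 and Col4a2 lie head to head and are transcribed in opposite directions, so they are shown by the sequence around their starts. Each run is the RefSeq window (GRCm38.p6) from 250 bases before to 50 bases after the annotated start, read 5′ to 3′ on the gene's own strand. Capitals mark GGGCGG on either strand, the GC box that is bound by SP factors.
Col4a1, chr8:11312777-11313076, minus strand: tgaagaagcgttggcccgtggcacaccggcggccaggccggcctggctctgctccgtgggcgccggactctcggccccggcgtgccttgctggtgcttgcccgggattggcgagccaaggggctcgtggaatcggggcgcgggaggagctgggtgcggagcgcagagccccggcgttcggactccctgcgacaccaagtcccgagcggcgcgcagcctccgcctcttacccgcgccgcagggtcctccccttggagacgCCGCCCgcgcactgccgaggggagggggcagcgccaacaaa
Col4a2, chr8:11312555-11312854, plus strand: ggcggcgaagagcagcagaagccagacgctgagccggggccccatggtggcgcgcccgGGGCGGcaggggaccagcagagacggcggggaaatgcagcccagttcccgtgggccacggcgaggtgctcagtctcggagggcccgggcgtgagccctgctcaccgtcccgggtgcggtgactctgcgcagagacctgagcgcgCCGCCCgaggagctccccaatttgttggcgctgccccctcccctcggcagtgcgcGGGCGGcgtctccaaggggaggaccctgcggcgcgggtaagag
The windows share 78 bases, and the first bases of the annotated transcripts used here, 11312826 for Col4a1 and 11312805 for Col4a2, lie 21 bases apart. Col4a1 is read towards lower and Col4a2 towards higher positions, so these transcripts overlap at their starts. The Col4a1 start used here lies inside its gene span, which ends at 11312889. GC content was 74.0% and 73.7%, against a median of 52.7% over 27025 genes with a window of this length. GGGCGG occurred 1 time in the Col4a1 window and 3 times in that of Col4a2, and in 35.9% of all windows at least once. The Col4a1 match and the last Col4a2 match are the same site in the shared bases, read on opposite strands. Across the 6 arrays the levels of these neighbours had a Pearson correlation of 0.99, a value to which the shared replicate numbers contribute.

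Laminins are trimers of an alpha, a beta and a gamma chain and start the assembly of a basement membrane at the cell surface. In the same build Lamc1 spans chr1:153218922-153332786, Lamb1 chr12:31265146-31329644 and Lama1 chr17:67697127-67822645. Lamc1, the gamma chain gene, read 8.19, 7.15 and 6.14 in wild type and 8.03, 6.92 and 6.04 in knockout arrays. The replicate number took up 99.0% of its sum of squares over the arrays, against a median of 66.6% over the genes above the median level. Each knockout array lay below its wild-type counterpart, by 0.10 to 0.23. The difference of −0.16 (blocked 95% interval −0.46 to 0.13) did not pass (adjusted p = 1.00, blocked 0.841). Number 1 stood 4.05-fold above number 3 (F test, adjusted p = 0.0163), and the second Lamc1 probe set differed by −0.26 and 1.85 in the same comparisons.

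Lamb1, the beta chain gene, read 12.04, 11.29 and 10.25 in wild type and 11.79, 10.59 and 10.24 in knockout arrays. In each pair the knockout array read lower, by 0.25, 0.70 and 0.01. Lamb1, Lamc1 and Sparc, 3 of the 10 genes, had that direction in every pair, as did 14.9% of all genes. The Lamb1 difference of −0.32 (95% interval −1.63 to 0.99; −0.71 to 0.07 with the block) did not pass (blocked adjusted p = 0.688), while number 1 stood 3.20-fold above number 3 (F test, adjusted p = 0.0178). Of its 3 other probe sets, 1 also read highest in number 1 (number 1 minus number 3 of 2.12), and the other 2 had means of 5.38 to 5.82, near the median level, with no call by number.

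Lama1, the alpha chain gene of the first laminin of the embryo, read 7.98, 6.40 and 5.96 in wild type and 7.11, 5.58 and 6.19 in knockout arrays. The knockout array was lower by 0.88 and 0.81 in pairs 1 and 2 and higher by 0.22 in pair 3. The difference over all arrays was −0.49 (95% interval −1.90 to 0.92), and did not pass with the block (adjusted p = 0.637). Without both arrays of number 3 it was −0.84 and passed in the blocked fit (adjusted p = 0.00263), a setting of 4 arrays in which 815 genes were called. Number 1 stood 2.77-fold above number 3 (F test, adjusted p = 0.0313).

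Nidogens bind laminin and type IV collagen and so connect both networks. Nid1 spans chr13:13437602-13512275 and Nid2 chr14:19751257-19811787. Nid1 read 8.88, 8.27 and 6.83 in wild type and 9.54, 8.42 and 7.25 in knockout arrays. The knockout array was higher in all 3 pairs, by 0.67, 0.15 and 0.42, and Nid1 was the 1 member with that pattern, which held for 13.5% of all genes. Its means were 7.99 ± 1.05 and 8.40 ± 1.15 (SD, n = 3). The difference of 0.41 had an interval of −1.25 to 2.07, or 0.06 to 0.76 with the block, and did not pass after adjustment (adjusted p = 1.00, blocked 0.456). Its second probe set differed by 0.017 and the last, with means of 3.63 and 3.94, read below the arrays' lower quartiles. Number 1 stood 4.49-fold above number 3 (F test, adjusted p = 0.0163). The second and the last Nid1 probe sets differed by 0.93 and 0.005 between these numbers. Neither was called (F test, adjusted p = 0.207 and 0.629 over all probe sets), so the call by number rests on the first probe set.

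Nid2 read 8.39, 6.81 and 5.90 in wild type and 8.16, 6.35 and 6.39 in knockout arrays. Its knockout array was lower in pairs 1 and 2 and higher in pair 3, and the difference was −0.07 (95% interval −1.81 to 1.67; −0.54 to 0.40 with the block). Number 1 stood 4.38-fold above number 3 (F test, adjusted p = 0.0166). Both nidogen genes were highest in the number 1 arrays, and they had no common direction by genotype.

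Perlecan, the product of Hspg2, is the large heparan sulphate proteoglycan of basement membranes. Its gene spans chr4:137468751-137570630. Hspg2 read 8.76, 8.66 and 9.38 in wild type and 8.96, 8.86 and 8.82 in knockout arrays. Its values lay close together, with wild-type array 3 the highest. The genotype difference was −0.05 (95% interval −0.55 to 0.44), and number 1 minus number 3 was −0.24 (F test, adjusted p = 0.622). Its second probe set read highest in the number 1 arrays, at 7.43 and 7.68 against 6.64 to 7.11 in the others, with number 1 minus number 3 of 0.69 (F test, adjusted p = 0.180 over all probe sets).

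SPARC is a secreted glycoprotein that binds collagens, type IV collagen among them. Its gene spans chr11:55394159-55420080. Sparc read 12.06, 11.43 and 11.06 in wild type and 11.42, 10.98 and 10.31 in knockout arrays. The knockout array was lower in every pair, by 0.63, 0.44 and 0.75, although the groups overlapped because the numbers differed. The means were 11.51 ± 0.51 and 10.90 ± 0.56 (SD, n = 3), and the wild type stood 1.53-fold above the knockout. The difference of −0.61 had a 95% interval of −1.45 to 0.23, or −0.92 to −0.30 with the block, and the adjusted p was 1.00 without the block and 0.176 with it. Of the sum of squares of Sparc, 32.7% went with genotype and 65.9% with number, the largest share for genotype among the 10 genes.

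The second Sparc probe set differed by −0.56 between genotypes (blocked, adjusted p = 0.461 over all probe sets) and its lowest-reading probe set by −0.07. Without both arrays of number 3 the Sparc difference was −0.54 and passed with the block (adjusted p = 0.0379, with 815 genes called). Sparc lies on chromosome 11, where genes above the median level were lower in knockout arrays by a median of −0.23 and 818 of 949 had a difference below 0. With each array centred on its chromosome's genes the Sparc difference was −0.31 (adjusted p = 1.00, blocked 0.834). Number 1 stood 2.08-fold above number 3 (F test, adjusted p = 0.0275), but the other Sparc probe sets differed by 0.24 and −0.35 between these numbers and were not called.

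Of the 10 genes, Sparc and Nid1 had blocked intervals that left out 0, in opposite directions, so their start regions are shown in the same way as those above.
Sparc, chr11:55420031-55420330, minus strand: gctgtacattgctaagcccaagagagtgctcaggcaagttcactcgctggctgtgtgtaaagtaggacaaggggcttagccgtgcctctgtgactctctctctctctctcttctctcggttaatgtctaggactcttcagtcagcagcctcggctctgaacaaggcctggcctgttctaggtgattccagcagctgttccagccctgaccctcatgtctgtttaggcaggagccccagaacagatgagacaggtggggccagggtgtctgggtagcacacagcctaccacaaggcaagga
Nid1, chr13:13437352-13437651, plus strand: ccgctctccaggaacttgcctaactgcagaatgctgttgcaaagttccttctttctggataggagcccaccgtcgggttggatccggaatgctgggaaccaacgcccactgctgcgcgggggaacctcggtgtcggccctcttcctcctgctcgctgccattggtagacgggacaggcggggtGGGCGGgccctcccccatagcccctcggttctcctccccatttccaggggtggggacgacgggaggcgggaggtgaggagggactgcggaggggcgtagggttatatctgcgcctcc
GGGCGG occurred 0 times in the Sparc window and 1 time in that of Nid1, and GC content was 55.3% and 64.7%. Windows were held for 6 of the 10 genes, Lamb1 and Hspg2 being the others. The motif of GATA factors, searched as AGATAA or as AGATAG and likewise as TGATAA or as TGATAG, occurred in 0 of the 6 windows on either strand and in 30.2% of all windows. CANNTG, the E-box of factors such as TAL1, occurred 3 times in the Sparc window, 2 times in that of Lamb1 and 0 times in the other 4, and in 72.1% of all windows. Overlapping matches were counted, and these letters say nothing about binding outside the windows.

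Fibronectin is a glycoprotein of the interstitial and early embryonic matrix on which mesoderm migrates. Its gene spans chr1:71585473-71653280. Fn1 read 13.97, 13.16 and 12.84 in wild type and 14.05, 12.98 and 13.12 in knockout arrays. The genotypes overlapped, with a difference of 0.06 (95% interval −0.85 to 0.97; −0.28 to 0.40 with the block). Number 1 stood 2.04-fold above number 3 (F test, adjusted p = 0.0281). The other Fn1 probe set went the opposite way by number, at 8.83, 8.34 and 9.84 in wild type and 9.18, 8.81 and 10.99 in knockout arrays. It was highest in the number 3 arrays of both genotypes, with number 1 minus number 3 of −1.41 (F test, adjusted p = 0.0275 over all probe sets), and its genotype difference was 0.66 (blocked adjusted p = 0.454). The statement on Fn1 thus holds for 1 of its 2 probe sets.

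**Figure D2:**
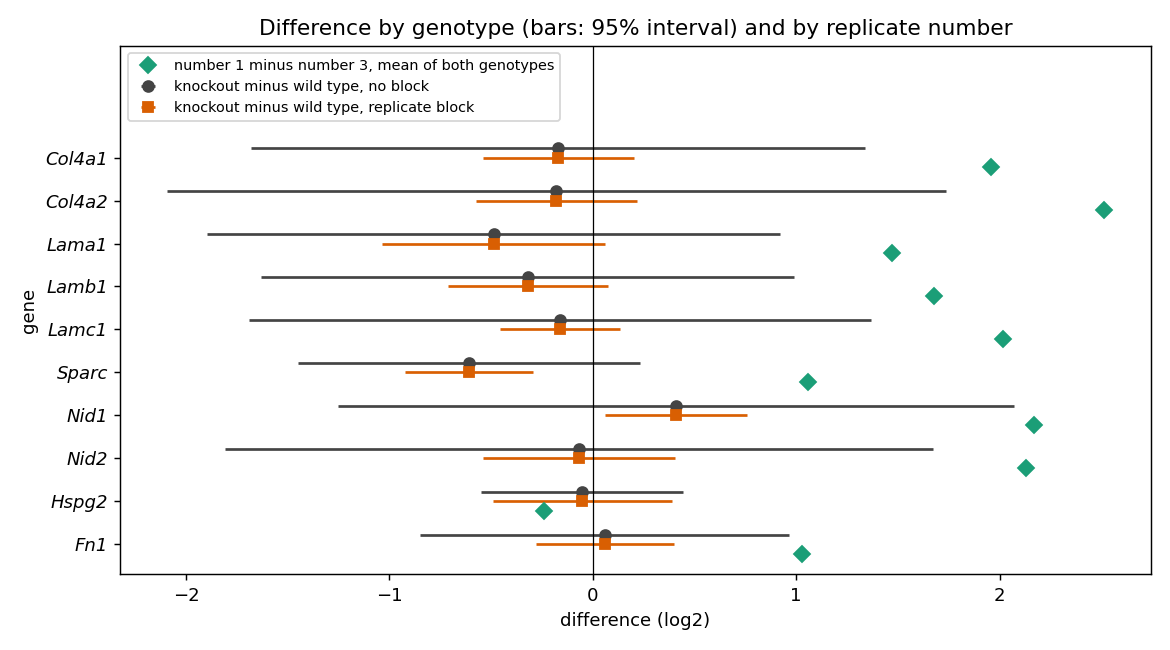
Differences (log2, x axis) of each gene (y axis): knockout minus wild type with its 95% interval without the block (circles) and with the replicate block (squares), and number 1 minus number 3 as the mean of both genotypes (diamonds). The diamonds of 9 genes lie above 1, whereas the genotype differences lie between −0.61 and 0.41, and the blocked intervals of Sparc and Nid1 leave out 0.

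The replicate number accounted for a median of 94.5% of the sum of squares over the 10 genes and genotype for 1.19%, against 53.4% and 8.93% over all genes. Over the genes above the median level these medians were 66.6% and 7.97%. Number has 2 and genotype 1 of the 5 degrees of freedom, so a larger share for number is built in. The members moved together: among the 9 genes other than Hspg2 the 36 pairwise Pearson correlations over the 6 arrays ran from 0.60 to 0.99, with a median of 0.90. Col4a2 with Lamc1 had the highest and Lama1 with Nid1 the lowest. Hspg2 correlated with the others at −0.48 to −0.20. All pairs share the same 6 arrays and their numbers, so these values describe the arrays and are not independent evidence of a link between genes.

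Array quality measures differed between the numbers as well, and their part in the result was not tested. For Gapdh, the 5′ control probe set stood at 12.93 in the number 3 arrays and at 10.19 to 11.11 in the other 4. For 18S ribosomal RNA it stood at 11.30 and 12.10 against 7.73 to 8.67. Number 1 also read above number 2 in both of these. The gaps were 0.42 and 0.47 for Gapdh and 0.60 and 0.80 for 18S (wild type, then knockout). For beta-actin, the 5′ probe set stood at 12.97 and 13.22 in number 3 and at 11.19 to 11.49 in the others. Its number 1 minus number 2 was −0.07 for wild type but 0.30 for knockout. Across all arrays the 3′ probe set of Gapdh stayed at 14.37 to 14.49. That of 18S stood at 11.93 and 12.10 in number 3, against 8.51 to 9.39 elsewhere. The median of number 1 minus number 2 was 1.03 over the 10 genes and 0.01 over all genes. Per gene, number 1 minus number 2 ran from 0.54 for Sparc to 1.70 for Nid2 among the 9 genes, and was 0.10 for Hspg2. The gap between numbers was present within either genotype. For instance, Col4a1 differed by 1.86 between wild-type arrays 1 and 3 and by 2.06 between the knockout arrays of these numbers. In bulk samples, fewer cells of a type and less RNA per cell cannot be told apart.

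**Figure D3:**
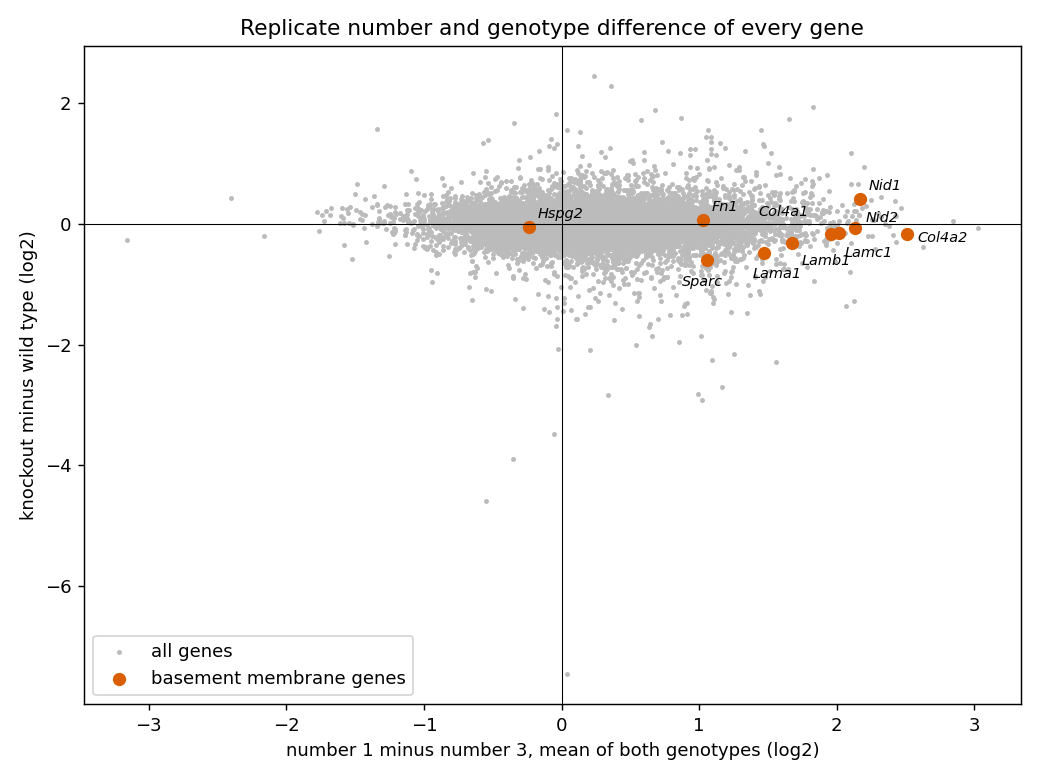
Knockout minus wild type (log2, y axis) against number 1 minus number 3 as the mean of both genotypes (log2, x axis) for all 18193 genes (grey points), with the 10 basement membrane genes as large labelled points. The 9 members other than Hspg2 lie right of 1 on the x axis and within 0.61 of 0 on the y axis.

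The 5 genes whose profile was most like the mean of the 10 members, among 11189 other genes above the median level, were Akirin2, Myo1d, Dnmt3b, Yap1 and D630045J12Rik. Their Pearson correlations with that mean over the 6 arrays ran from 0.997 to 0.999. Number 1 minus number 3 was 0.55 for Akirin2 (F test, adjusted p = 0.128), 1.24 for Myo1d, 0.98 for Dnmt3b, a DNA methyltransferase gene, 0.95 for Yap1, a transcriptional co-activator gene, and 1.64 for D630045J12Rik, the last 4 of which were called. Myo1d turned to −0.13 when probe sets marked x, s or a (those that can match several transcripts) were left out. The members' own mean and these genes come from the same arrays.

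Other components of basement membranes were read for 30 of 31 listed genes. By genotype 0 were called without the block (0.0220% of all genes) and 1, Frem1, with it (0.341%). The median difference was −0.12, against −0.01 over all genes. Frem1, which encodes an extracellular matrix protein beneath embryonic epidermis, read 7.73, 6.68 and 5.93 in wild type and 4.69, 5.20 and 3.99 in knockout arrays. All its knockout arrays lay below all wild-type arrays, and 7.92% of all genes did not overlap, in either direction. Its mean over all arrays was 5.70, near the median level. It fell by 2.15 on the log2 scale with the block (adjusted p = 0.0431, unblocked 0.627). Centred by chromosome, it did not pass with the block (adjusted p = 0.0787). Col4a5, a type IV collagen gene on the X chromosome, was higher in knockout arrays by 0.85 (blocked adjusted p = 0.101), and Fbln1, the fibulin gene, differed by −0.50 (0.368). Among the genes above the median level, fitted alone, the F test over number called 2243 of 11199. By number 8 genes of this list were called (9.15% of all genes), 4 of them among the 13 above that level. Those 4 were all higher in number 1 than in number 3, and included Col18a1 by 1.70, Col4a5 by 1.42 and Agrn, the gene of the proteoglycan agrin, by 1.10.

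Receptors that bind basement membranes were read for all 21 listed genes. By genotype 0 were called in either fit (0.0220% of all genes, 0.341% with the block), with a median difference of −0.05 (−0.01 over all genes). Cd44, a hyaluronan receptor gene, differed by 0.79 with knockout arrays above all wild-type arrays (blocked adjusted p = 0.0849). The genotype groups did not overlap, in either direction, for 7.92% of all genes. Itgb1, the integrin beta chain shared by most matrix receptors, differed by 0.74 (blocked adjusted p = 0.116). On chromosome 8, where Itgb1 lies, genes above the median level were higher in knockout arrays by a median of 0.26. By number 5 were called (9.15% of all genes), all among the 15 above the median level. Of the genes above that level, fitted alone, 2243 of 11199 were called. Dag1, which encodes the laminin receptor dystroglycan, was higher in number 1 than in number 3 by 1.51 and the integrin gene Itgav by 1.34. Itgb1, which lies on chromosome 8 as does Col4a1, went the other way at −1.06 (F test, adjusted p = 0.0291), so the called receptor genes did not all share 1 direction.

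Genes of collagen and matrix synthesis were read for 22 of 25 listed genes. By genotype 0 were called in either fit (0.0220% of all genes, 0.341% with the block), and the median was −0.01, as over all genes. P4ha2, a prolyl hydroxylase gene, differed by −0.89 (blocked adjusted p = 0.123) and Colgalt1, a collagen glycosyltransferase gene, by 0.49 (0.255). P4ha2 lies on chromosome 11 and Colgalt1 on chromosome 8, whose genes above the median level differed by medians of −0.23 and 0.26. The folding enzyme genes Ppib and P4hb differed between number 1 and number 3 by −0.15 and −0.05 and were not called. By number 3 were called (9.15% of all genes), all among the 18 above the median level. Of the genes above that level, fitted alone, 2243 of 11199 were called, so no excess is read from this list. Pxdn, the peroxidasin gene whose product crosslinks type IV collagen, was among the 3 at 1.60 (F test, adjusted p = 0.0166).

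Genes of matrix turnover were read for 15 of 17 listed genes. By genotype 0 were called in either fit (0.0220% of all genes, 0.341% with the block), and the median was 0.09 (−0.01 over all genes). Mmp9, a gelatinase gene whose product can cleave type IV collagen, read 7.93, 7.38 and 6.40 in wild type and 10.60, 8.43 and 8.47 in knockout arrays. All its knockout arrays lay above all wild-type arrays, and 7.92% of all genes did not overlap, in either direction. The Mmp9 difference of 1.93 did not pass (adjusted p = 1.00, blocked 0.0671). Adamts9, a matrix protease gene, differed by 1.29 (blocked adjusted p = 0.0981). By number 6 were called (9.15% of all genes), all among the 13 above the median level (2243 of 11199 genes above that level, fitted alone). Among the 6 were the gelatinase gene Mmp2 at 1.06, Mmp9 at 1.83 and Mmp14, a membrane-bound collagenase gene, at 1.70.

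Markers of other cell types that lay down basement membrane moved in part with the numbers, and their part in the result was not tested. Endoderm of the yolk sac is known as a rich source of laminin and type IV collagen. Of 17 visceral and parietal endoderm markers, 10 lay above the median level and 6, all among those 10, were called by number (9.15% of all genes). The F test fitted to genes above that level alone called 2243 of 11199. Apoe, Gata6, Gata4, Fst and Sox7 had means of 11.28, 10.93, 9.51, 9.25 and 8.75, whereas Afp, Amn, Cubn and Thbd had means of 3.76 to 4.95, against lower quartiles of 4.22 to 4.37 on the arrays. Gata6, Gata4, Sox7, Sox17 and Dab2 were higher in number 1 than in number 3 by 1.13, 1.11, 2.10, 1.61 and 1.24, and Apoe went the other way, at 10.70 and 11.06 in number 1 against 11.61 and 12.14 in number 3. Hnf4a and Ttr, also above the median level, differed by −0.30 and −0.36 and were not called. The median of number 1 minus number 3 was 0.14 over all 17 markers and 0.99 over the 10 above the median level. Of the 17, 5 were highest in the number 1 array of both genotypes. Dab2 turned to −0.24 without probe sets marked x, s or a. Several of these also act outside endoderm, Gata4 and Gata6 in cardiac mesoderm and Sox7 and Sox17 in early endothelium. The summed linear level of the list, of which Apoe took 18.8% to 52.7%, ran from 6579 to 8820 in wild-type and from 6884 to 9093 in knockout arrays. Its median genotype difference was −0.18, against −0.01 over all genes. Rhox5, an X-linked homeobox gene, fell by 1.52 with the block (adjusted p = 0.0500, unblocked 0.588), a fit that called 0.341% of all genes.

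Among 10 smooth muscle and fibroblast markers 3 were called by number (9.15% of all genes), all among the 6 above the median level. The F test fitted to genes above that level alone called 2243 of 11199. The interstitial collagen genes Col1a1 and Col1a2 were higher in number 1 than in number 3 by 2.41 and 2.10. Cnn1, the smooth muscle calponin gene, went the other way, with number 1 minus number 3 of −0.41 and number 2 minus number 3 of −1.10 (F test, adjusted p = 0.0333). The summed level of the list ran from 1185 to 1837 in wild-type and from 1633 to 2568 in knockout arrays. The median genotype difference was 0.18 (−0.01 over all genes), with 0 called (0.0220% of all genes, 0.341% with the block). Of the other lists, 0 of 9 endothelial, 0 of 7 pluripotency, 1 of 9 Flk1-positive mesoderm and 1 of 7 epithelial markers were called by number (9.15% of all genes). Their median genotype differences were 0.04, 0.47, −0.20 and 0.65, against −0.01 over all genes. With the block 1 pluripotency marker, Dppa5a, and 1 epithelial marker, Krt19, rose by 1.20 and 1.21 (adjusted p = 0.0315 and 0.0238, unblocked 0.148 and 0.667). The blocked fit called 0.341% of all genes. Summed levels of the epithelial list were 7918 to 9349 in wild-type and 12063 to 14593 in knockout arrays, and those of the pluripotency list 3041 to 3750 and 4917 to 7290. Single genes carried much of these linear sums: Krt8 took 64.6% to 71.6% of the epithelial sum, and Dppa5a 45.7% to 71.3% of the pluripotency sum, so a sum mainly follows that probe set. By gene, 5 of 7 epithelial and 5 of 7 pluripotency markers had a higher mean in knockout arrays and 2 of each a lower one. Those of the endothelial list were 1293 to 1597 and 1036 to 1926, and those of Flk1-positive mesoderm 15775 to 22230 and 16055 to 23833.

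**Figure D4:**
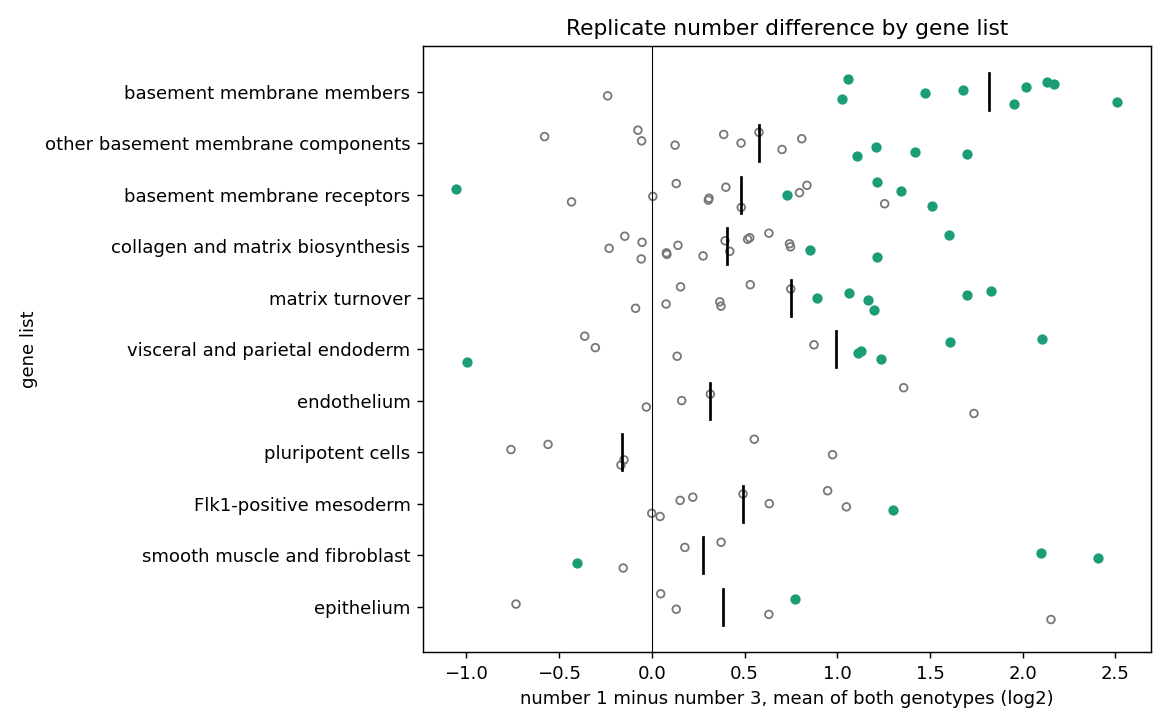
Number 1 minus number 3 as the mean of both genotypes (log2, x axis) for the genes of each list (y axis) whose mean lies above the median level, with genes called by the F test over number filled, others open, and the list's median as a bar. The median is 1.82 for the basement membrane members and between −0.16 and 0.99 for the other lists, and called genes of the other lists lie on both sides of 0.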

How the data were processed

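The deposited values are log2 expression levels per probe set, which the authors made with RMA and the affy package, per the submitters' processing notes; versions and any further scaling are not given in the sources used here. Of 45101 probe sets, 64 are controls, 34945 have exactly 1 gene in the array annotation, 932 several and 9160 none, and only single-gene probe sets were used. Positions, chromosomes and promoter windows are from RefSeq, GRCm38.p6. Linear models were fitted to 18193 genes (1 probe set each) with limma 3.58.1 in R 4.3.3 (lmFit, eBayes), with Benjamini-Hochberg adjustment over all genes and a threshold of 0.05. Wild-type and knockout arrays were compared without and with the replicate number as a block. The number was treated as pairing the arrays, since deviations from the genotype means correlated at 0.698, 0.350 and 0.446 for numbers 1, 2 and 3, above the limit of 0.1. The F test over number used the blocked fit; it, and the block combined with chromosome centring, averaged probe sets or fewer probe sets, were added after the values were seen. The genotype fits were also run on simulated data, where only the mean error of added differences was checked. The F test over number was not part of that check.

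The members and lists were chosen with earlier results of these data known. Named from the lists were genes past the threshold in either fit, the 3 with the highest mean and, in pathway lists, the 2 with the largest difference above the median level, as far as a statement needed them, and the 5 genes most like the members' mean. Pxdn, Mmp14, Sox7, Sox17, Dab2, Hnf4a, Ttr, Fst, Afp, Cubn, Thbd, Amn, Cnn1, Col1a1 and Col1a2 were chosen after their values were seen. No set test was run. The 3 arrays a group limit the precision. Plots used Python 3.11.15 and matplotlib 3.10.9.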

Additional observations from a re-analysis of the deposited data

How the results depend on the processing

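The number of arrays limits every genotype statement. Without the block, 4 genes were called lower and 0 higher; over the settings that leave out an array or a number without the block, 1 to 6 lower and 0 higher were called. With the replicate block it was 42 and 20, with array weights 52 and 16, centred by chromosome 14 and 2, or 14 and 6 with the block. With the block, averaged probe sets gave 33 and 15, and leaving out probe sets marked x, s or a gave 35 and 15. Without number 1, 2 or 3 the blocked counts were 31 and 19, 131 and 136, and 572 and 243, and repeated quantile normalisation gave 1 higher. Members called by genotype numbered 0 except in the blocked fit without number 3, with 2. Genes called by number, 1664, were 407 to 7044 without 1 array, 334 centred by chromosome, 3145 with trended robust variance and 750 with averaged probe sets. Members called numbered 9, or 6 to 10 without 1 array and 5 centred by chromosome. They numbered 6 with averaged probe sets and 8 without probe sets marked x, s or a. With the most variable probe set they numbered 9, of which Fn1 was lower in number 1 than in number 3. The median difference of the members, −0.17, ran from −0.72 to 0.32 without 1 array, lowest without knockout array 1 and highest without wild-type array 1; their median by number, 1.82, was 1.49 centred by chromosome and 1.25 with averaged probe sets. Without an array or number, the genotype difference ran from −0.76 to 0.29 for Col4a1, −0.92 to 0.50 for Col4a2, −0.90 to 0.11 for Lama1, −0.79 to 0.11 for Lamb1, −0.68 to 0.35 for Lamc1, −0.17 to 0.99 for Nid1, −0.67 to 0.61 for Nid2, −0.19 to 0.20 for Hspg2 and −0.27 to 0.38 for Fn1, each turning sign; that of Sparc kept its sign. Nid2 was 0.013 and 0.13 in the blocked fits without number 1 and 2, Hspg2 0.20 and Fn1 −0.054 without number 3, and 0.17 and −0.052 with array weights. By number, Hspg2 ran from −0.52 to 0.041 without 1 array and was 0.22 averaged and 0.69 with the most variable probe set, while Fn1 was −0.19 and −1.41 in these settings. Without probe sets marked x, s or a, Dab2 turned to −0.24 and Myo1d to −0.13 by number. The causes were not tested.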
